A study of Mus musculus with 5 samples.

Results

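The response of C2C12 cells, an immortal mouse myoblast line, to 8 h of shikonin was read against 8 h of vehicle by comparing 2 of the 5 libraries of the study across all genes of the deposited table. Shikonin is a naphthoquinone pigment of plant roots that is used to inhibit the pyruvate kinase isoform PKM2. The other libraries came from cells given TEPP-46, known to activate PKM2, for 8 h, and from cells with a hairpin against PKM2 (shPKM2) or a control hairpin (shControl) for 72 h. They serve here as context. All cells were proliferating in high-glucose medium with serum, polyadenylated RNA was sequenced, and the labels give no dose for either compound. Each condition had 1 library, so the differences below have no replicate to check them, carry no p-value and describe these cultures only. Levels are FPKM, fragments per kilobase of transcript scaled to library size. A difference is log2(FPKM + 1) with shikonin minus log2(FPKM + 1) with vehicle, which understates the change of low genes, and its standard error (SE) covers counting of reads only.

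Of 23361 genes in the table, 11128 averaged 1 FPKM or more across all libraries and entered. With shikonin, 446 of them (4.01%) were higher than with vehicle by 2-fold or more and 389 (3.5%) were lower by that much, and by any amount 47.6% were higher and 52.2% lower. The counts within gene lists and groups below are to be read beside these shares. After rescaling each library to the same sum (transcripts per 1000000, TPM), the split was 440 higher against 544 lower. That step also makes the added 1 smaller beside each level. Rescaling to the FPKM sum of the vehicle library, which keeps it, gave 385 higher and 461 lower. The median difference of all genes was -0.03, with quartiles of -0.36 and 0.30, and the outer 1% on each side lay below -1.38 or above 1.66. Depth, inferred from the spacing of very low FPKM values and given in units of 1000000 reads, was 23.4 for the shikonin library, 25.3 for TEPP-46 and 32.3 for vehicle. All 10 myoblast markers reached 1 FPKM in the shikonin or the vehicle library, with a summed level of 429 FPKM with shikonin and 687 FPKM with vehicle. Each of the 10 had a negative difference, 3 of them at least 2-fold (median -0.77). The adipocyte and endothelial markers (Lep, Plin1 and Emcn at 0) summed to under 1 FPKM in both libraries, and among the macrophage markers found in the table only Cd14 reached 1 FPKM, at 16 FPKM with shikonin and 9.09 FPKM with vehicle. The neuron markers summed to 1.65 FPKM with shikonin and 2.80 FPKM with vehicle, with Snap25 at 0. In bulk RNA, fewer cells of a type and less RNA per cell cannot be told apart.

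**Figure D1:**
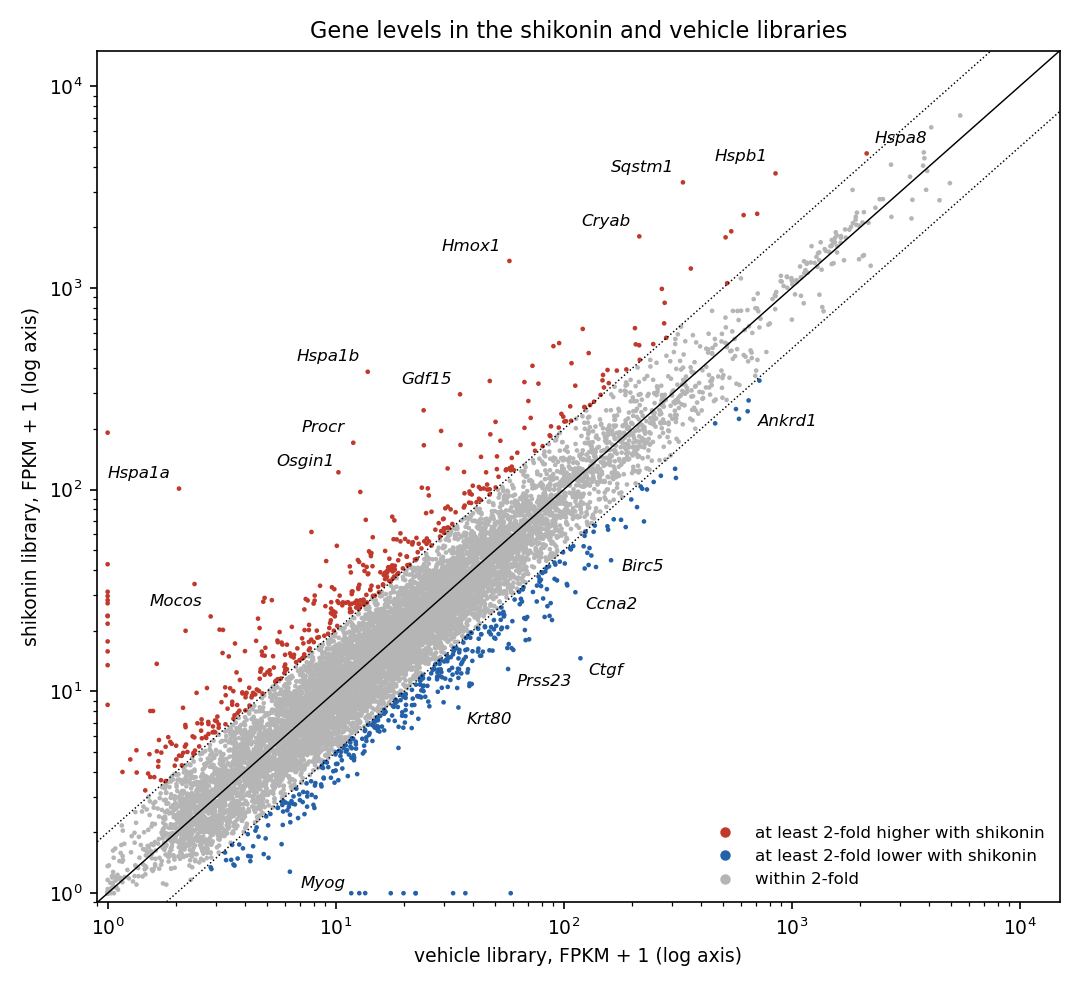
Level of each of the 11128 genes in the shikonin library (vertical axis) and the vehicle library (horizontal axis), both as FPKM + 1 on log axes. Each point is 1 gene, the solid line marks equal levels and the dotted lines 2-fold. Red points are the 446 genes at least 2-fold higher and blue points the 389 at least 2-fold lower; the points along the axes are mostly short RNA genes listed at 0 in 1 library.

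Several stress programmes of animal cells act through factors whose target genes are well known. Heat shock factor HSF1 drives chaperone genes when proteins unfold, and NRF2, released from its inhibitor KEAP1, drives genes that make glutathione and clear quinones. ATF4 answers signals that slow translation, and p53 answers damage. In dividing cells, genes of the mitotic phase share a promoter element called CHR, which the MuvB complex reads.

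The largest differences on the high side belonged to inducible HSP70. Hspa1a (chr17:34969190-34972156, minus strand, GRCm38), which has a single exon, stood at 100.3 FPKM with shikonin, 0.759 FPKM with TEPP-46 and 1.06 FPKM with vehicle. Hspa1b, its near-identical copy on the same strand of that chromosome, stood at 383 FPKM with shikonin, 8.84 FPKM with TEPP-46 and 12.8 FPKM with vehicle. The shikonin library lay far above the other 8 h libraries for both, and also above the 72 h libraries, where Hspa1b stood at 21.1 FPKM with shPKM2 and 21.9 FPKM with shControl. The differences from vehicle were 5.62 (counting SE 0.076) for Hspa1a and 4.80 (counting SE 0.040) for Hspa1b. How the counting split reads between these copies is not known, so the value of each alone is uncertain.

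The promoters of this pair are shown because they carry the best known target of the heat shock factors. RefSeq sequences of GRCm38.p6 upstream of the start are given 5′ to 3′ on the strand of the gene, with capitals marking a match to the heat shock element. The match is either the 2-unit form (GAANNTTC or TTCNNGAA) or, in Uchl1, the 3-unit form (GAA, TTC and GAA in turn, each NN apart), searched on both strands. Hspa1a (chr17:34972202-34972311, minus strand), Hspb1 (chr5:135887771-135887880, plus strand), Zfand2a (chr5:139484629-139484738, minus strand) and Uchl1 (chr5:66675905-66676014, plus strand) are shown. They were chosen after the values were seen and because they hold a match; Bag3 and Hsph1, which were also looked at, had none upstream.
Hspa1a: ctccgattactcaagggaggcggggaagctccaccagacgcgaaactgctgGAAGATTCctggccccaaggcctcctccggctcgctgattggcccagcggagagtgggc
Hspb1: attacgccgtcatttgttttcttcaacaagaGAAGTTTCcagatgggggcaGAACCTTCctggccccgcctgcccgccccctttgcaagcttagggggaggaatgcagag
Zfand2a: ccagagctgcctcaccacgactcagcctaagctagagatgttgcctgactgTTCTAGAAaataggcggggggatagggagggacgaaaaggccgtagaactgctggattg
Uchl1: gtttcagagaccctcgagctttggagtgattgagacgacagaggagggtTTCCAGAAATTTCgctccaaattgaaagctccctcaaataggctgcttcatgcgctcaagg
The 110 bases shown for Hspa1a are identical in Hspa1b, and 296 of the 300 bases of their promoter windows (250 before the start and 50 after it) are the same. Uchl1, which encodes a ubiquitin hydrolase best known from neurons, stood at 69.9 FPKM with shikonin, against 12.6 FPKM with vehicle, a difference of 2.39.

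Other chaperone genes were higher in part. Hsph1, the HSP110 partner that exchanges nucleotide on HSP70, stood at 514 FPKM with shikonin and 89.2 FPKM with vehicle (2.51). The small heat shock gene Cryab, whose product holds desmin and other filaments in muscle, stood at 1802 FPKM with shikonin and 214 FPKM with vehicle (3.07), and its neighbour Hspb2, which overlaps it, differed by -0.07. Hspb1 stood at 3699 FPKM with shikonin and 849 FPKM with vehicle (2.12). These 3 genes were at most 950 FPKM in the TEPP-46 library, where Hsph1 was at 65.0, Cryab at 186 and Hspb1 at 950 FPKM. Of 15 HSP70 and HSP110 genes, 6 were higher by 2-fold or more and none lower by that much, with a median of 0.45.

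The response was uneven among chaperone families. Hsp90aa1, the inducible cytosolic HSP90, differed by 1.72, whereas the constitutive Hsp90ab1 differed by 0.73. Hspa8, the constitutive HSP70 and 1 of the 5 most abundant transcripts of the shikonin library, stood at 4645 FPKM with shikonin, 1213 FPKM with TEPP-46 and 2133 FPKM with vehicle (1.12). Of the mitochondrial chaperone genes, Hspa9 was at 0.25, Hspd1 at 0.41 and Hspe1 at 0.78. Of 5 small heat shock genes, 3 were higher by 2-fold or more (median 1.28). Among 35 DNAJ genes, which encode the partners that bring clients to HSP70, 5 were at least 2-fold higher, led by Dnajb9 (2.00), Dnajb1 (1.97) and Dnaja4 (1.91), and their median was 0.17. Bag3, which links HSP70 to autophagy in muscle, stood at 144 FPKM with shikonin and 42.4 FPKM with vehicle (1.75), and the factor gene Hsf2 stood at 43.7 FPKM with shikonin and 17.8 FPKM with vehicle, where Hsf1 differed by 0.26. None of the 15 chaperonin and prefoldin genes, whose cytosolic members fold actin and tubulin, reached 2-fold (median 0.07). Over the 98 chaperone genes together, 17 were at least 2-fold higher and 0 lower, against 4.01% and 3.5% of all genes. Their transcripts made up 4.84% of the summed FPKM with shikonin, 2.395% with TEPP-46 and 2.61% with vehicle.

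Genes of the oxidant response were higher next. Hmox1, which encodes haem oxygenase 1, stood at 1361 FPKM with shikonin, 285 FPKM with TEPP-46 and 56.9 FPKM with vehicle. That is a difference from vehicle of 4.56 (counting SE 0.027), and the shikonin level also exceeded the 218 FPKM of shPKM2 and the 74.4 FPKM of shControl. Blvrb, which encodes biliverdin reductase B, stood at 101 FPKM with shikonin and 22.9 FPKM with vehicle (2.10). Osgin1, an oxidative stress growth inhibitor, stood at 121 FPKM with shikonin and 9.29 FPKM with vehicle (3.57). Nqo1, the quinone reductase often used to mark NRF2, differed by 0.58 only. Of 23 genes for clearing quinones, carbonyls and haem, 20 were higher, with 7 past 2-fold (median 0.53).

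Of 14 genes for glutathione and the transport that supplies it, 10 were higher, with 7 past 2-fold (median 0.78). The 7 include the transport genes Slc7a11 and Slc3a2 and also Chac1 (1.615), whose enzyme breaks glutathione down. Of 23 thioredoxin and peroxiredoxin genes, 14 were higher, with 7 past 2-fold, and 1 was 2-fold lower (median 0.41). Of 16 glutathione S-transferase genes, 10 were higher, with 2 past 2-fold, and 1 was 2-fold lower (median 0.23). Of all genes, 47.6% were higher, 4.01% past 2-fold higher and 3.5% past 2-fold lower. The cystine importer Slc7a11 stood at 28.1 FPKM with shikonin, 16.1 FPKM with TEPP-46 and 3.88 FPKM with vehicle (2.58). The enzymes that make and reduce glutathione were all past 2-fold, with Gclm at 1.59, Gsr at 1.17, Gclc at 1.06 and Gss at 94.7 FPKM with shikonin and 37.8 FPKM with vehicle, while the peroxidases Gpx1 (-0.26), Gpx4 (0.03) and Gpx8 (-0.45) were not. Srxn1, the sulfiredoxin that repairs overoxidised peroxiredoxin, stood at 532 FPKM with shikonin and 94.6 FPKM with vehicle (2.48). Cytosolic Prdx6 (2.37) and Prdx1 (1.80) were more than 2-fold higher, whereas the mitochondrial genes Prdx3 (-0.23), Txn2 (-0.24) and Txnrd2 (-0.91) had negative differences. Txnip, the thioredoxin inhibitor, stood at 6.11 FPKM with shikonin and 13.7 FPKM with vehicle (-1.05). NADPH, which feeds both systems, is made by enzymes that differed in both directions, with Pgd at 1.34 and mitochondrial Idh2 at -1.39. Taldo1, a pentose phosphate gene of the same list whose enzyme does not itself make NADPH, was at 1.54.

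The regulators of this response were themselves higher. All 10 measured genes for NRF factors and their control had a positive difference (median 0.87), although Rbx1, at 0.05, was negative after rescaling to TPM. Sqstm1, the autophagy receptor p62 that also captures KEAP1, stood at 3339 FPKM with shikonin, 1099 FPKM with TEPP-46 and 333 FPKM with vehicle (3.32). The small MAF partner Mafk stood at 56.0 FPKM with shikonin and 19.2 FPKM with vehicle, and Mafg had 2.66 times its vehicle level. The repressor Bach1 (1.36) was also past 2-fold, while Nfe2l2, which encodes NRF2, was at 0.63 and Keap1 at 0.78. Sqstm1, Mafg and Txnrd1 each overlap another gene, and whether counting used strand is not given in the sources used here. Promoters of Gclm (chr3:122245372-122245481, plus strand) and Prdx1 (chr4:116685415-116685524, plus strand) are shown with their match to the core of the antioxidant response element (TGACNNNGC, either strand) in capitals. Srxn1 was also looked at and had no upstream match.
Gclm: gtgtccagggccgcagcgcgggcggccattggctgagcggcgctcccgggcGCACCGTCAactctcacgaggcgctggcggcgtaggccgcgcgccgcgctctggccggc
Prdx1: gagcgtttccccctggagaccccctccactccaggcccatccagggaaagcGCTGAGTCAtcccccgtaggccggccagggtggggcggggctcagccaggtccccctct

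Genes for the protein-cutting machinery were higher nearly throughout. All 33 genes of the proteasome core and cap had a positive difference, 11 of them at least 2-fold, with a median of 0.85; after rescaling to TPM, Shfm1 (0.03) turned negative and 6 were at least 2-fold higher. In the core, which cuts proteins, Psma5 stood at 391 FPKM with shikonin, 127 FPKM with TEPP-46 and 155 FPKM with vehicle (1.33). Psmb3 stood at 667 FPKM with shikonin, 267 FPKM with TEPP-46 and 275 FPKM with vehicle (1.28). In the cap, which receives ubiquitinated proteins, Psmd4 stood at 370 FPKM with shikonin, 158 FPKM with TEPP-46 and 148 FPKM with vehicle (1.32). In each of these genes the TEPP-46 and vehicle libraries lay close together and below the shikonin library. The catalytic gene Psmb5 differed least in the core (0.47). The immunoproteasome and activator genes (median -0.03) and the assembly chaperones (median -0.15) had no member past 2-fold, and the largest difference there was 0.91, for the activator Psme4.

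Genes for ubiquitin and its handling were higher in part. Ubb, a polyubiquitin gene, stood at 989 FPKM with shikonin, 266 FPKM with TEPP-46 and 269 FPKM with vehicle (1.88). Rps27a, which joins ubiquitin to a ribosomal protein, differed by 0.06. Zfand2a, an arsenite-inducible partner of the proteasome, stood at 247 FPKM with shikonin, 31.3 FPKM with TEPP-46 and 23.3 FPKM with vehicle (3.35). The p97 unfoldase gene Vcp was at 0.97 and its cofactor Nploc4 at 1.28. Of 25 genes in this list, 21 were higher, 7 of them at least 2-fold.

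Autophagy and lysosome genes were also higher. Of 31 autophagy genes, 26 were higher, with 8 past 2-fold (median 0.49), including the ubiquitin-like Gabarapl1, which coats autophagosomes, at 187 FPKM with shikonin and 46.7 FPKM with vehicle (1.98). Of 45 lysosome genes, 41 were higher, with 7 past 2-fold (median 0.53); after rescaling to TPM 38 were higher. The protease gene Ctsd stood at 632 FPKM with shikonin, 215 FPKM with TEPP-46 and 205 FPKM with vehicle (1.62), and the proton pump gene Atp6v1h, which overlaps Rgs20, differed by 1.52. Ctsd stood at 424 FPKM with shPKM2 and 396 FPKM with shControl, and with shControl as the control the lysosome median was -0.10.

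**Figure D2:**
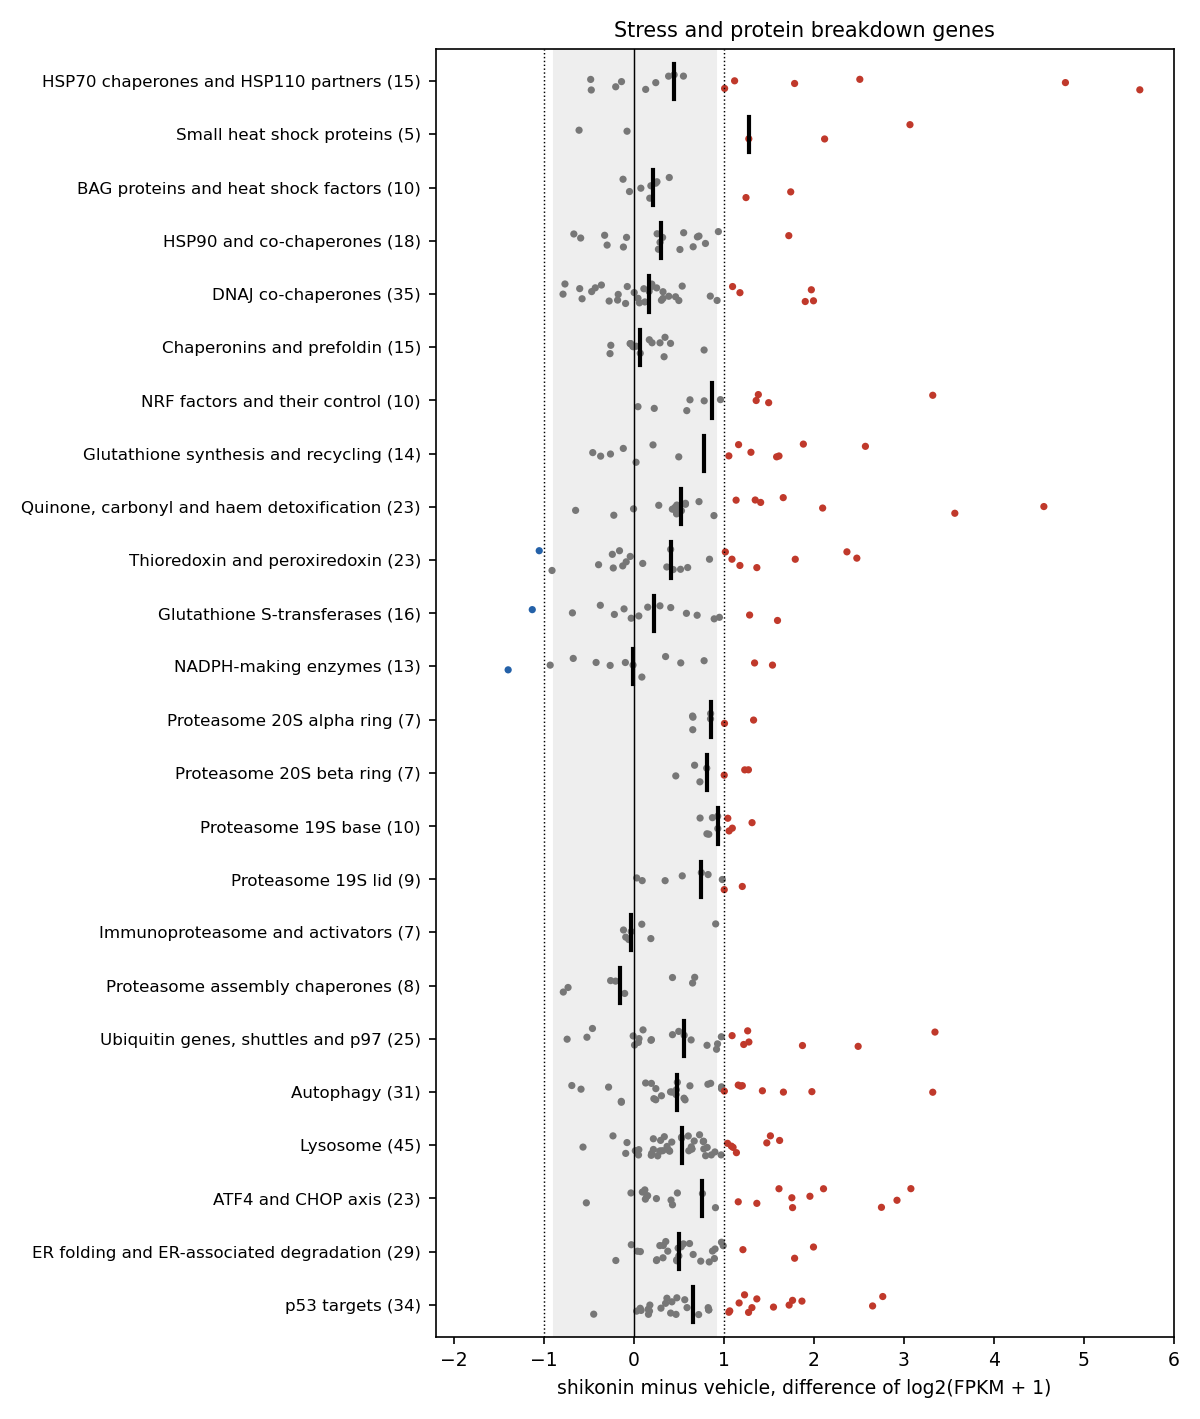
Difference of log2(FPKM + 1), shikonin minus vehicle (horizontal axis), for 24 selected gene lists (number of measured genes in brackets). Each point is a gene, red at least 2-fold higher and blue at least 2-fold lower, black bars are list medians, the grey band spans the 5th to 95th percentile of all genes (-0.88 to 0.92) and dotted lines mark 2-fold. Points of the proteasome core and cap sit to the right of 0, while the chaperone lists have a few far points and medians from 0.07 for chaperonins to 1.28 for the 5 small heat shock genes.

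The ATF4 and CHOP axis, which answers amino acid lack and unfolded protein, was higher with shikonin than with vehicle, and had a larger median with TEPP-46. Of its 23 genes, 21 had a positive difference, which reached 2-fold in 10 (median 0.76), but the median of TEPP-46 minus vehicle was 1.56. Ddit3, which encodes CHOP and overlaps Mars, stood at 195 FPKM with shikonin, 243 FPKM with TEPP-46 and 28.0 FPKM with vehicle (2.75). Trib3, a CHOP target, stood at 47.5 FPKM with shikonin, 160 FPKM with TEPP-46 and 13.4 FPKM with vehicle. Ppp1r15a, the phosphatase subunit that restores translation, had its highest level with shikonin, at 96.5 FPKM with shikonin, 52.9 FPKM with TEPP-46 and 11.8 FPKM with vehicle (2.93). Gdf15, a secreted stress cytokine, likewise stood highest with shikonin, at 296 FPKM, against 108 FPKM with TEPP-46 and 34.1 FPKM with vehicle. Enzymes that ATF4 is known to drive differed little with shikonin: Asns was at 0.26, the cytosolic aminoacyl-tRNA synthetases had a median of 0.11 and serine and folate enzymes -0.27. The same lists had medians of 0.54 and 0.49 for TEPP-46 minus vehicle. The compounds share the vehicle library and their doses are not known, so these values stand side by side only.

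Genes for folding in the endoplasmic reticulum (ER) were higher by less. Hspa5, the ER chaperone BiP, stood at 1248 FPKM with shikonin, 790 FPKM with TEPP-46 and 360 FPKM with vehicle (1.79). Of 29 ER genes, 27 were higher, with 3 past 2-fold (median 0.50, and 0.18 with shControl as the control). The 3 were Hspa5, Dnajb9 and Syvn1, and the first 2 were also counted in the HSP70 and DNAJ lists above. Syvn1, a ligase of ER-associated degradation, was at 1.21 and Xbp1 at 0.91. Promoters of Nupr1 (chr7:126625523-126625632, minus strand) and Hspa5 (chr2:34771979-34772088, plus strand) are shown with capitals marking a C/EBP-ATF composite (TGATGNAAT) and the ER stress element (CCAAT followed by CCACG at a fixed spacing).
Nupr1: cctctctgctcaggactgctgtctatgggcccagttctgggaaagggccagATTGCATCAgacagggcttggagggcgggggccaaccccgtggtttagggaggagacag
Hspa5: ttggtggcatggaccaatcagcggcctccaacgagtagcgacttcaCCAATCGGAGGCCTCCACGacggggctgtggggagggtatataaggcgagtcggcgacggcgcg
Nupr1, a small chromatin protein of stressed cells, stood at 216 FPKM with shikonin, 240.1 FPKM with TEPP-46 and 49.3 FPKM with vehicle (2.11).

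Targets of p53 were higher too. Of 34 such genes, 33 had a positive difference, which reached 2-fold in 13 (median 0.66), and Ddb2, at 0.03, turned negative after rescaling to TPM. Mdm2, the ligase that p53 induces against itself, stood at 174 FPKM with shikonin, 53.8 FPKM with TEPP-46 and 51.8 FPKM with vehicle (1.73). Cdkn1a, the cell cycle inhibitor p21, stood at 258 FPKM with shikonin, 137 FPKM with TEPP-46 and 106 FPKM with vehicle (1.28). Some members also answer ATF4: Gadd45a stood at 165 FPKM with shikonin, 141 FPKM with TEPP-46 and 23.4 FPKM with vehicle, while Ddit4 stood at 47.3 FPKM with shikonin, 54.7 FPKM with TEPP-46 and 13.2 FPKM with vehicle. Among death genes, Tnfrsf10b (1.31), Mlkl (1.27) and Fas (1.23) were at least 2-fold higher, 3 of the 19 listed, against 4.01% of all genes. In the BCL2 family, Bcl2l11, which encodes the killer BIM, was at 1.16 and Bok at -1.45.

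Secreted and surface genes added some of the largest single values. Procr, the protein C receptor, stood at 170.0 FPKM with shikonin, 9.26 FPKM with TEPP-46 and 10.9 FPKM with vehicle (3.84). Nppb, which encodes a natriuretic peptide, stood at 60.8 FPKM with shikonin, 5.95 FPKM with TEPP-46 and 6.83 FPKM with vehicle (2.98). Both were also far above the 72 h libraries, where Procr reached at most 20.99 FPKM and Nppb at most 2.65 FPKM. Ptgs2, the inducible prostaglandin synthase, stood at 345 FPKM with shikonin, 115 FPKM with TEPP-46 and 46.4 FPKM with vehicle (2.87). The chemokine genes Ccl2 (1.53) and Cxcl1 (1.69) were past 2-fold over vehicle, but Ccl2 stood at 40.8 FPKM with shikonin, 203 FPKM with shPKM2 and 359 FPKM with shControl. The list of cytokines and chemokines, which also holds Nppb and Ptgs2, had 28 measured genes. Of these, 8 were at least 2-fold higher and 1 lower (median 0.17), against 4.01% and 3.5% of all genes. Outside the lists, Calr3, a calreticulin relative known from testis, stood at 18.99 FPKM with shikonin and 1.20 FPKM with vehicle (3.19). Mocos, which finishes the molybdenum cofactor, stood at 22.6 FPKM with shikonin and 1.83 FPKM with vehicle (3.06).

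**Figure D3:**
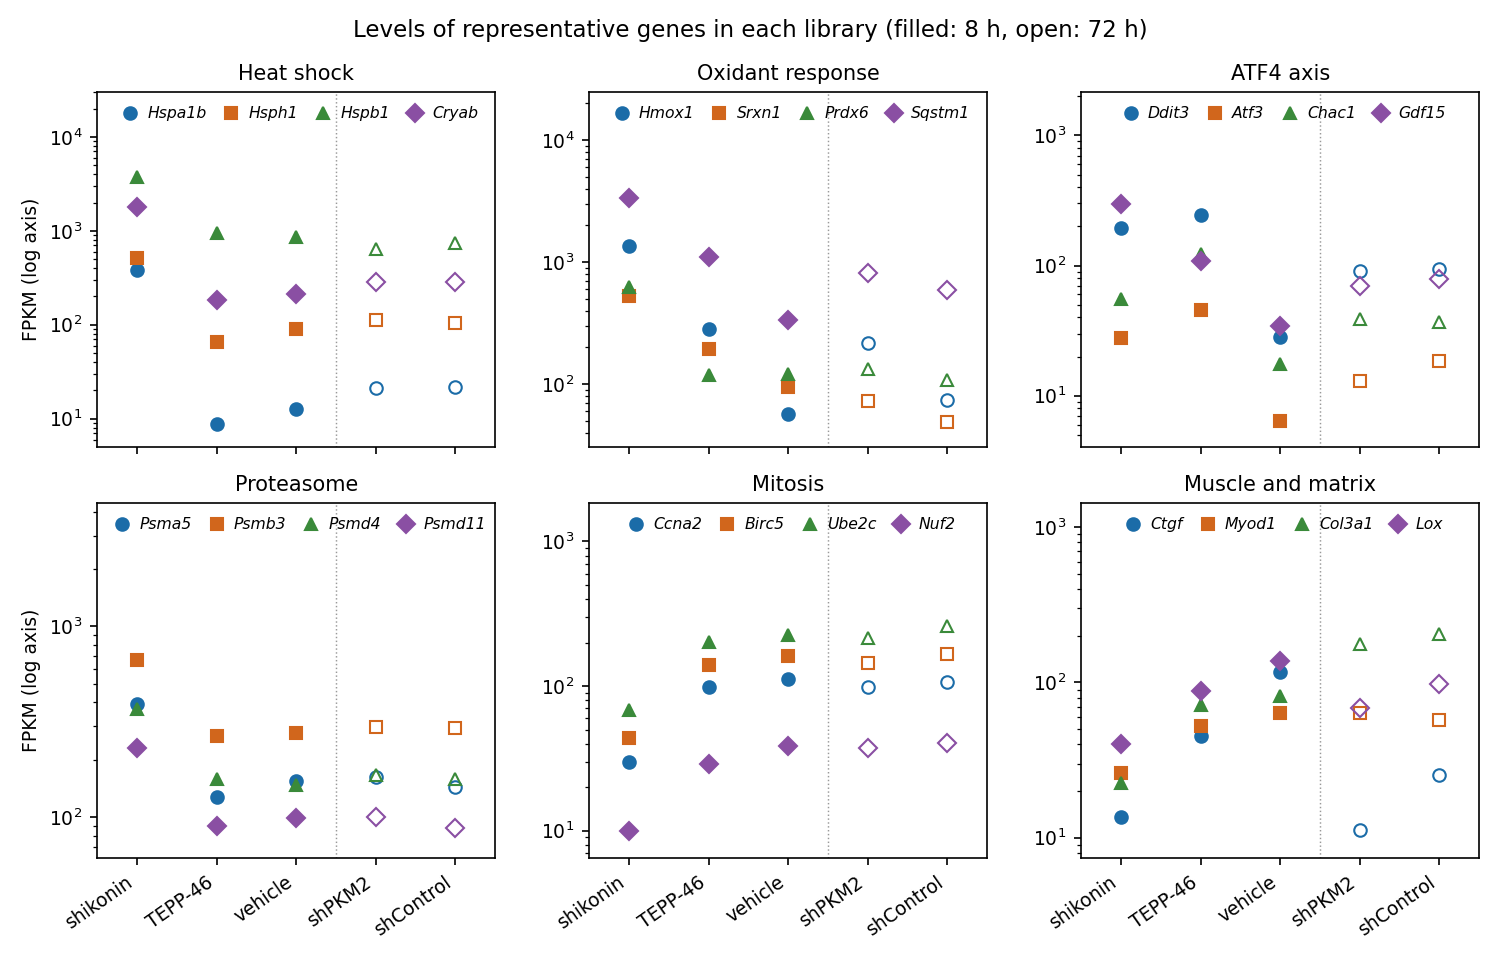
Levels of 24 genes in each library as FPKM on log axes, in 6 panels, with the 8 h libraries as filled points and the 72 h libraries as open points. Hspa1b, Hsph1, Hspb1 and Cryab are high in the shikonin library alone, the ATF4 axis genes are high with shikonin and TEPP-46, and the 4 mitosis genes are lowest with shikonin. Ctgf is low with shikonin and also with both hairpins, at 13.6, 11.1 and 25.2 FPKM, against 117 FPKM with vehicle.

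Genes of cell division were lower as a group. Of 86 genes in the lists for mitotic cyclins and kinases, kinetochore and spindle, and mitotic kinesins, 84 had a negative difference, 56 of them at least 2-fold, with a median of -1.22. Ccna2, the cyclin A2 gene, which overlaps Exosc9, stood at 30.04 FPKM with shikonin, 97.7 FPKM with TEPP-46 and 112 FPKM with vehicle (-1.86, counting SE 0.037). Birc5, which encodes survivin of the chromosomal passenger complex, stood at 43.7 FPKM with shikonin, 140 FPKM with TEPP-46 and 160 FPKM with vehicle (-1.85). The TEPP-46, vehicle and hairpin libraries lay close together for both, between 97.7 and 112 FPKM for Ccna2 and between 140 and 167 FPKM for Birc5. Foxm1, the factor that drives mitotic genes, was at -1.61, Plk1 at -1.54 and the proliferation marker Mki67 at -1.53. The exceptions were Zwint, a kinetochore protein, at 125 FPKM with shikonin and 49.96 FPKM with vehicle (1.31), and Ccnf, a ubiquitin ligase cyclin, at 0.93. Kinesins that carry cargo are set beside them: of 16 transport kinesins, 2 were at least 2-fold higher and 0 lower (median 0.10).

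Promoters of Ube2c (chr2:164769819-164769928, plus strand), Top2a (chr11:99024190-99024299, minus strand) and Ccnb2 (chr9:70421664-70421773, minus strand) are shown with the letters of the CHR element (TTTGAA, either strand) in capitals. They were chosen because they hold a match; Prc1, Plk1 and Racgap1, also looked at, had none upstream.
Ube2c: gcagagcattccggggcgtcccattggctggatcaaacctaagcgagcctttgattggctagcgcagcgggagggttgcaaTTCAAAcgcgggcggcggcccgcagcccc
Top2a: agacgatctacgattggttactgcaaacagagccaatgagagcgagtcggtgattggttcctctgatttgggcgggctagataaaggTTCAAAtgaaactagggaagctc
Ccnb2: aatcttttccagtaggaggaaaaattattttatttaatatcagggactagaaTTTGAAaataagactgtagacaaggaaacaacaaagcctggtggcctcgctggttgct
Ube2c, the E2 enzyme that marks cyclins for breakdown, stood at 68.6 FPKM with shikonin and 224 FPKM with vehicle (-1.69). Top2a, which untangles DNA, stood at 39.7 FPKM with shikonin and 123 FPKM with vehicle (-1.60), and Ccnb2, cyclin B2, at 15.4 FPKM with shikonin and 58.1 FPKM with vehicle (-1.85).

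DNA synthesis genes were lower by less. Of 46 replication genes, 44 had a negative difference and 10 were at least 2-fold lower (median -0.67), with Uhrf1 (-1.44) and the primase Prim1 (-1.43) lowest. The helicase genes Mcm2 (-0.95) and Mcm5 (-0.96) were just inside 2-fold, and the sliding clamp Pcna was at -0.23. In nucleotide supply, the thymidine kinase Tk1, which overlaps Afmid, stood at 22.7 FPKM with shikonin, 46.7 FPKM with TEPP-46 and 85.8 FPKM with vehicle (-1.87). Rrm2, the ribonucleotide reductase subunit of S phase, stood at 113 FPKM with shikonin, 209 FPKM with TEPP-46 and 310 FPKM with vehicle (-1.44). TEPP-46 lay between the other libraries for both. Of 49 DNA repair genes, 42 were lower, 8 of them at least 2-fold, against 52.2% and 3.5% of all genes. The linker histone H1f0 was at -1.74 and the centromere histone Cenpa at -1.49. Of 65 clustered histone genes, 59 fell below the minimum in these libraries of polyadenylated RNA. Of the 6 that entered, 4 were higher, with Hist1h2bc at 1.71, too few to describe the clustered histones. Tubulin genes were mixed, with Tuba1b at -1.39, Tubb5 at -1.05 and Tuba4a at 1.11.

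**Figure D4:**
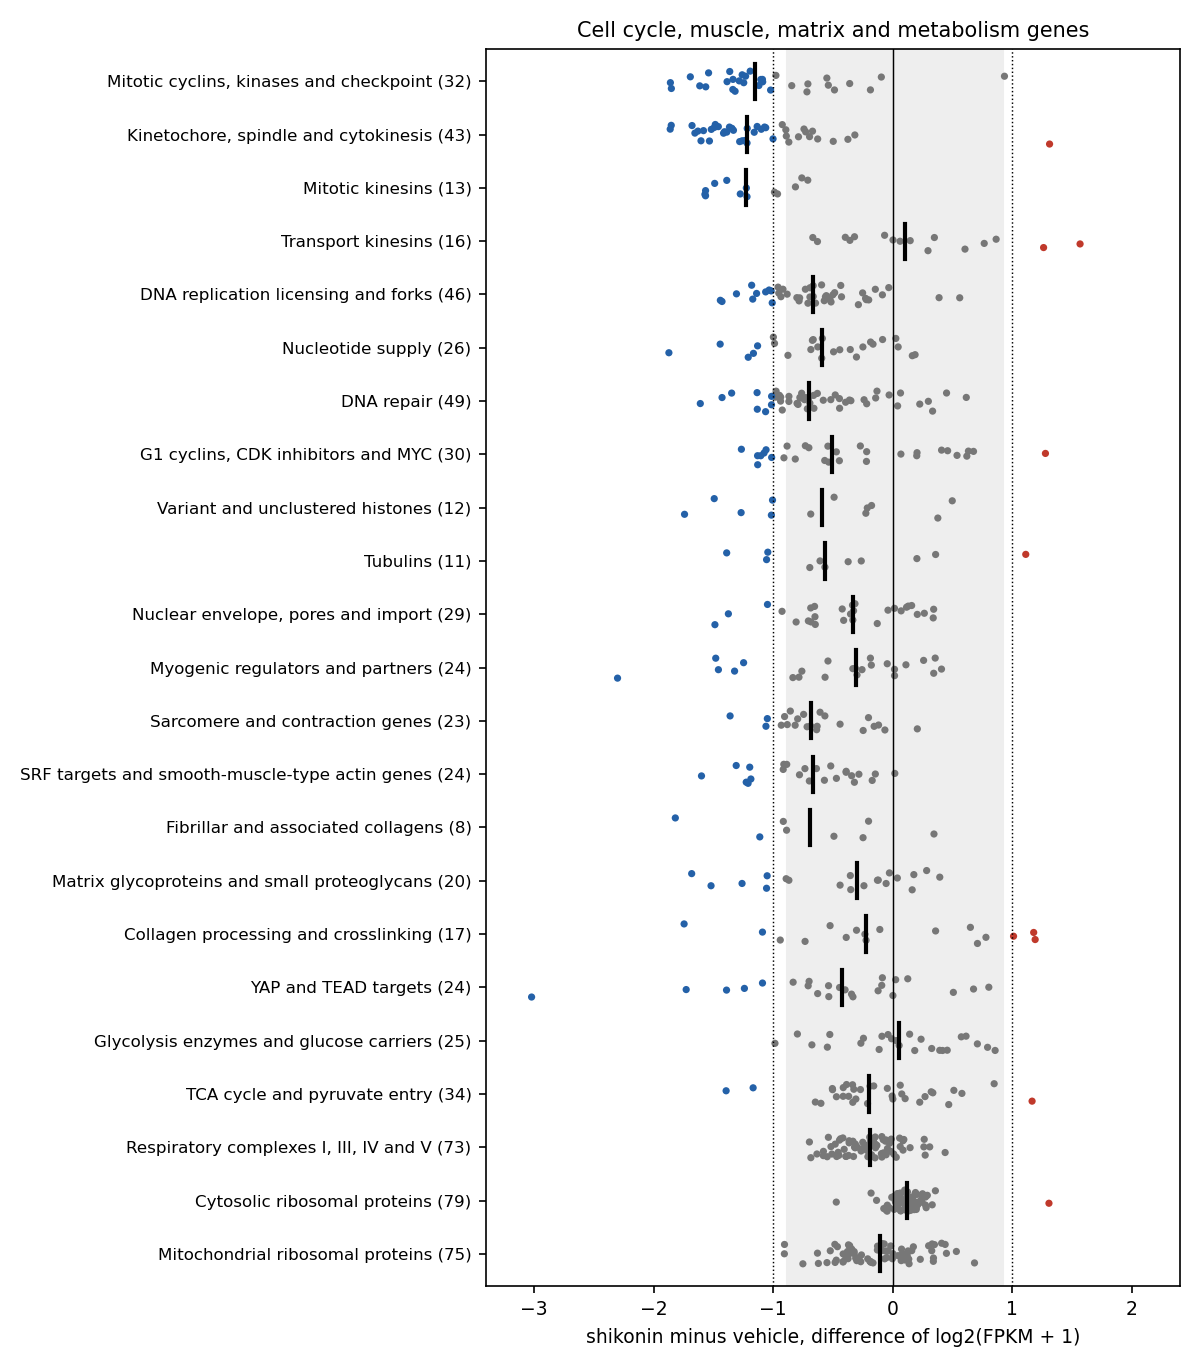
Difference of log2(FPKM + 1), shikonin minus vehicle (horizontal axis), for 23 selected gene lists on division, muscle, matrix and metabolism (number of measured genes in brackets). Points, colours, bars, grey band and dotted lines are as in the plot of the stress lists. The mitotic lists have medians from -1.16 to -1.22, and those of glycolysis and of the ribosomal protein lists lie within 0.12 of 0.

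The myoblast programme was lower. Of 24 myogenic regulators, 5 were at least 2-fold lower and 0 higher (median -0.31). Myod1, which commits cells to muscle, stood at 26.1 FPKM with shikonin, 52.3 FPKM with TEPP-46 and 63.2 FPKM with vehicle (-1.25). Myog, which starts differentiation and averaged 4.51 FPKM over the libraries, stood at 0.278 FPKM with shikonin, 5.66 FPKM with TEPP-46 and 5.30 FPKM with vehicle (-2.30, counting SE 0.13). Myf5 stood at 3.69 FPKM with shikonin, 23.6 FPKM with TEPP-46 and 10.7 FPKM with vehicle, the largest deficit against TEPP-46 among the genes open to naming (-2.39). For all 3, the shikonin library was the lowest of the 5. Of 23 sarcomere genes, 22 had a negative difference and 3 were at least 2-fold lower, including the skeletal actin gene Acta1 (-1.06). The list for SRF, the serum response factor, and smooth-muscle-type actin genes had 24 measured genes. Of these, 6 were at least 2-fold lower, led by Fhl1 (-1.60) and Myh10 (-1.31). Of all genes, 3.5% were lower by that much. The median of the SRF list was -0.668, and -0.246 with shControl as the control.

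The lowest difference of all nameable genes was that of Ctgf, the connective tissue growth factor that YAP and TEAD drive (-3.02, counting SE 0.060). It stood at 13.6 FPKM with shikonin, 45.3 FPKM with TEPP-46 and 117 FPKM with vehicle, but at 11.1 FPKM with shPKM2 and 25.2 FPKM with shControl, so vehicle was the high library. Its relative Cyr61, also a YAP target, was at -0.34. Of 24 YAP and TEAD genes, 5 were at least 2-fold lower (median -0.42), among them the muscle repeat protein gene Ankrd1 (-1.39) and the receptor gene Axl (-1.24). Of all genes, 3.5% were lower by that much, and with shControl as the control the YAP and TEAD median was -0.087. In the matrix, Col3a1 stood at 22.4 FPKM with shikonin and 81.5 FPKM with vehicle (-1.82), and Col1a2 at 41.6 FPKM with shikonin and 91.0 FPKM with vehicle (-1.11). The fibrillar collagen median was -0.69, and -0.032 with shControl as the control. Lox, which crosslinks collagen, stood at 40.4 FPKM with shikonin and 138 FPKM with vehicle (-1.74), while the lysyl hydroxylase Plod2 (1.19) and the prolyl hydroxylase P4ha1 (1.18) were higher. The proteases Plau (-1.98), the urokinase, and Prss23 (-2.14) and the keratin gene Krt80 (-2.05) were among the lowest 5 of the rule.

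The lists for glycolysis, the TCA cycle and the respiratory chain had medians between -0.20 and 0.05. Pkm, whose product shikonin is used against, stood at 1501 FPKM with shikonin, 1198 FPKM with TEPP-46 and 1321 FPKM with vehicle, a difference of 0.18 (counting SE 0.010); a value per gene does not separate the M1 and M2 forms. None of the 25 glycolysis genes reached 2-fold (median 0.05, and -0.01 after rescaling to TPM), the ends being Eno3 at -0.98 and Eno2 at 0.86. Of 34 genes of the TCA cycle and pyruvate entry, 1 was at least 2-fold higher and 2 lower, against 4.01% and 3.5% of all genes. The higher gene, Pdhx, a subunit of pyruvate dehydrogenase, stood at 30.8 FPKM with shikonin and 13.2 FPKM with vehicle (1.17). Of 73 respiratory chain genes, 60 had a negative difference and 0 passed 2-fold (median -0.19). Cytosolic ribosomal proteins were slightly higher, 69 of 79 (51 of 79 after rescaling to TPM), with 1 past 2-fold, Rps27, a gene with near-identical copies. In the list of TXNIP and ARRDC genes, tied to glucose sensing, 2 of 6 were higher and 1 lower by 2-fold or more. Arrdc1 was at 1.03 and Txnip at -1.05. The median was 0.70, and 0.375 with TEPP-46 in place of vehicle. Of 20 hypoxia targets, 16 were higher, with 3 past 2-fold (median 0.32), but the median was -0.47 with shControl as the control. The metal-binding metallothionein Mt1 stood at 1909 FPKM with shikonin, 5452 FPKM with TEPP-46 and 543 FPKM with vehicle. Mt2 stood at 2297 FPKM with shikonin, 9511 FPKM with TEPP-46 and 615 FPKM with vehicle, so TEPP-46 was the high library for both.

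The shikonin library differed from the TEPP-46 library by at least 2-fold in 405 genes upward (3.64%) and 405 downward (3.64%), and by any amount 46.6% were higher and 53.1% lower. The highest were Hspa1a (5.85), Hspa1b (5.29) and Procr (4.06), and among the lowest after Myf5 were G0s2 (-2.21), Cth (-2.15), Snai2 (-2.09) and Klf4 (-2.08). Cth, which makes cysteine, stood at 11.8 FPKM with shikonin, 55.9 FPKM with TEPP-46 and 10.0 FPKM with vehicle. Klf4 stood at 24.9 FPKM with shikonin, 109 FPKM with TEPP-46 and 30.9 FPKM with vehicle. In both, the TEPP-46 library stood apart and shikonin was near vehicle.

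Promoter letters were counted for 12 motifs, chosen after values were known; the last of them, the 2-unit heat shock element, was added after the 3-unit form matched few genes. Promoters of 8884 of the 11128 genes were found in the RefSeq table, among them 350 of the higher and 301 of the lower genes. The CHR letters were in 27.9% of promoters of lower genes and 10.6% of higher genes, against 11.6% of all, and in 57.5% of the mitosis lists. An E2F element (TTTCCCGC, TTTCGCGC, TTTGCCGC or TTTGGCGC) was in 8.64% of lower and 1.71% of higher genes, against 4.43% of all. The 3-unit heat shock element was in 3 higher genes (0.857%) and 0.394% of all, and the 2-unit form in 14.6% of higher, 12.3% of lower and 11.5% of all. In the chaperone lists the shares were 5.13% for the 3-unit and 21.8% for the 2-unit form. Of the 4 chaperone genes with the 3-unit form, 1 was at least 2-fold higher, and of the 74 without it, 13 were. The antioxidant response element core was in 18.9% of higher, 15.3% of lower and 15% of all genes, and in 17.7% of the oxidant lists. The ER stress element was in 34.6% of the ER list and 0.146% of all genes. The C/EBP-ATF composite was in 0.286% of higher genes and 0.394% of all, and in 7.89% of the ATF4 and amino acid lists. CCAAT was in 43.1% of higher, 46.8% of lower and 39.3% of all genes, and it is part of the ER stress element. The metal response core (TGCACNC or TGCGCNC) was in 29.1% of higher, 39.5% of lower and 37.1% of all. The TEAD core (GGAATG), the E-box CAGCTG and the CArG box were in 10.3%, 17.7% and 1.43% of higher genes, in 13.3%, 13.6% and 1.99% of lower genes, and in 11.5%, 14.2% and 1.33% of all. A match is a description of letters in this window and says nothing of binding.

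**Figure D5:**
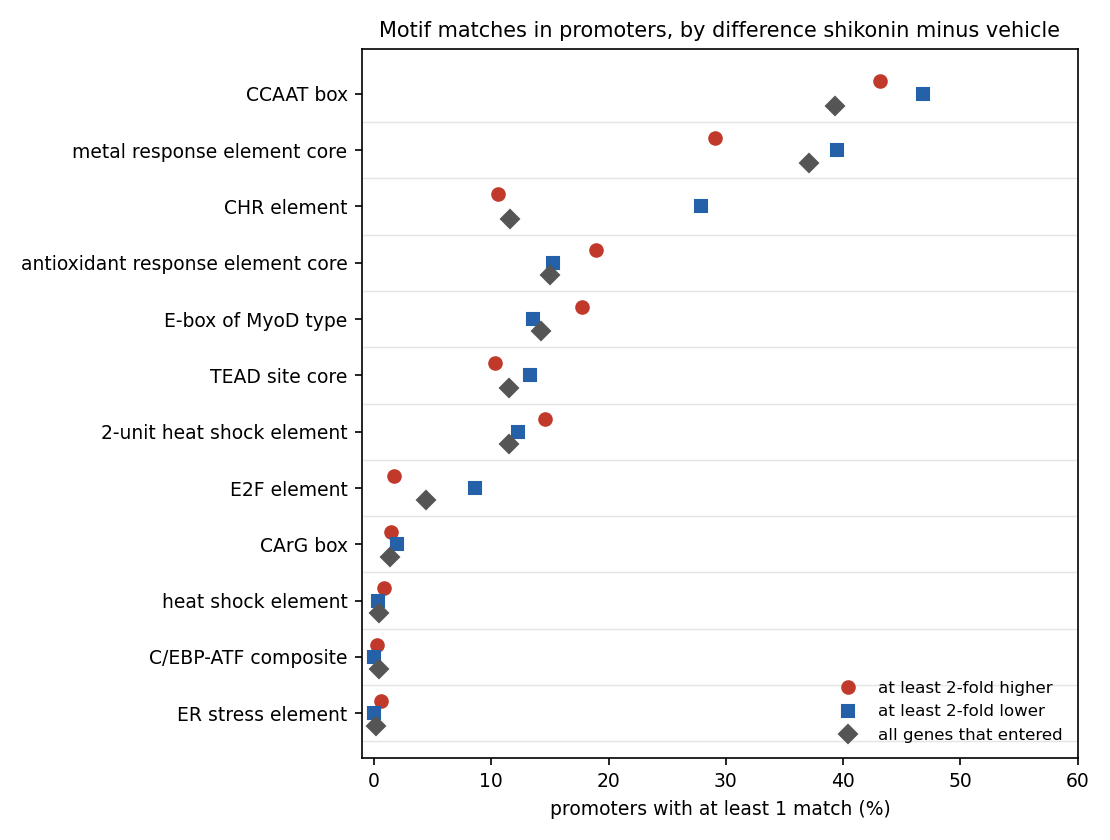
Share of promoters with at least 1 match (horizontal axis, percent) for the 12 motifs searched, in genes at least 2-fold higher with shikonin (red circles), at least 2-fold lower (blue squares) and all genes that entered (grey diamonds). The CHR element is in 27.9% of lower genes and the E2F element in 8.64%, against 11.6% and 4.43% of all genes, and the metal response core is in 29.1% of higher genes, against 37.1% of all.

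Some features of the libraries, looked at after the values were known, moved with the comparison. RNAs that lack a poly(A) tail or are often carried over, among them Rn45s, Rmrp and Malat1, summed to 1146 FPKM with shikonin and 769 FPKM with vehicle, with all 6 measured ones higher and 2 at least 2-fold. Genes with 1 exon were at least 2-fold higher in 9.86% of 355 cases and at least 2-fold lower in 5.07%, and genes with 16 or more exons in 1.82% and 3.89% of 2471 cases. Of 80 short RNA genes, 23.8% were at least 2-fold higher and 13.8% lower. The part of these features in the differences above was not tested. Without the short RNA genes, 427 genes were higher by 2-fold or more and 378 lower.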

How the data were processed

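The deposited table gives 1 FPKM value per gene for each of 5 libraries, as computed by the authors. The tools named, per the submitters' processing notes, are Trim Galore 0.6.0, cutadapt, FastQC and DESeq2 1.26.0, and the build is GRCm38. Which aligner, quantifier, annotation and strand setting made the FPKM values is not given in the sources used here. Per the labels' protocols, poly(A) RNA was made into NEBNext Ultra II libraries. From these values log2(FPKM + 1) was computed for genes averaging 1 FPKM or more, and the shikonin library was compared with the vehicle library, with 1 library per condition and no test. Read depth and counting errors were estimated from the steps of low values and transcript lengths (99.4% of the genes had one); they cover counting error only. Scripts ran in Python 3.11.15 with pandas 2.3.3, NumPy 2.4.6 and matplotlib 3.10.9, and were tested on simulated data.

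Genes named come from those averaging 5 FPKM or more and at least 300 nt long: the 20 highest and 20 lowest differences, up to 4 members past 2-fold in each of 86 gene lists with the member farthest the other way, the 8 highest and 8 lowest against TEPP-46, the 5 most abundant, and Pkm, with other list members named by role; of these Myog, Fas and Ddb2 lie below that minimum of 5 FPKM. Lists share members, Sqstm1, Chac1, Hspa5 and Dnajb9 among them. The members, the lists, the motifs and the genes in the figures were chosen with earlier results of these data known. Promoter sequences are from RefSeq (GRCm38.p6), and motif matches were counted over 250 bases before and 50 after the first listed start. Alternatives were other pseudocounts, minimums and scalings, and other libraries as control. Some list members are not reported here by name.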

Additional observations from a re-analysis of the deposited data

How the results depend on the processing

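The number of genes higher by 2-fold or more was 446, and 244 with a pseudocount of 5; the number lower was 389, and 587 with a pseudocount of 0.1, 168 with a pseudocount of 5, and 831 against the shControl library. Minimums, rescaling, centring and leaving out short RNA genes kept both counts within 1.5 times. Of 80 lists with 5 or more genes, 38 had a median past 0.3, a size set after the medians had been seen, and all 38 kept their direction except when the control was replaced. With shControl the medians were -0.096 for lysosome, 0.032 for basement membrane and -0.466 for hypoxia genes; with TEPP-46 they were -0.205 for the ATF4 and CHOP axis and -0.002 for hypoxia genes. In all, 14 of the 38 medians moved by over 1.5 times with shControl and 9 with TEPP-46. With shControl they came to -0.032 for fibrillar collagens, -0.087 for YAP and TEAD genes, -0.181 for nucleotide supply and -0.246 for the SRF list. They were -0.386 for sarcomere genes, -0.596 for myogenic regulators, -0.264 for tubulins, 0.354 for quinone and haem genes and 0.176 for ER folding. The rest with shControl were 0.044 for NF-kB genes and -0.696 for acetylcholine receptor and synapse genes. With TEPP-46 they came to 0.391 for glutathione, 0.272 for thioredoxin, 0.327 for ER folding and -0.141 for YAP and TEAD genes. The rest with TEPP-46 were -0.241 for G1 cyclins and CDK inhibitors, 0.375 for TXNIP and ARRDC genes and -0.272 for tubulins. Rescaling to the vehicle sum, and TPM with its own minimum of 1 TPM (471 higher, 553 lower), were chosen after seeing the data. Of 191 named genes past 2-fold, 154 stayed past it with a pseudocount of 5, 184 after rescaling to TPM, 188 after centring, 142 with shControl and 134 with TEPP-46 in place of vehicle. Differences of opposite sign arose only with another control. With shControl they were 0.02 for Cyp1b1, -3.107 for Ccl2, -0.11 for Gla, -0.291 for Rps27, 0.362 for Thbs1, -2.434 for Cxcl1, -0.011 for Relb, -0.898 for Insig1 and -0.4 for Ndrg1. With TEPP-46 they were -0.319 for Ddit3, -1.122 for Chac1, -0.186 for Sesn2, -2.049 for Mt2, -1.514 for Mt1, -1.021 for Slc30a1, -0.152 for Nupr1, -0.698 for Slc6a9, -0.139 for Rps27, -0.205 for Ddit4, -0.707 for Atf3, 0.325 for Irs1, -1.029 for Acot2 and -1.388 for Ndrg1. The shControl library was taken at 72 h, so these values hold the time as well as the compound, and the cause was not tested. No paired analysis was possible because each condition has 1 library. Low genes are limited by depth, and the spread between cultures is unknown.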

Other observations

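Outside the 86 lists, 13 small groups were put together after their members had been seen among the genes past 2-fold, so their counts are a description and support nothing. Chromatin proteins of the high mobility group and HP1 families were lower by 2-fold or more in 8 of 14 genes (median -1.12), and condensin subunits, which compact mitotic chromosomes, in 4 of 8 (median -1.02). Caveola coat genes were lower in 6 of 6, with 3 past 2-fold (median -1.04), and the PRRX, TWIST and SCX mesenchymal factors in 5 of 5, with 3 past 2-fold. MHC class I heavy chains with B2m were higher in 8 of 8, with 4 past 2-fold (median 0.92); these genes have near-identical copies. YPEL genes were past 2-fold in 2 of 3, molybdenum cofactor enzymes in 2 of 5, and creatine genes 2-fold lower in 2 of 3. Augmin (median -0.41), hyaluronan (median -0.38), folliculin and Rag (median 0.11), ESCRT (median 0.06) and HOPS and CORVET (median 0.21) genes had at most 2 members past 2-fold.

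Neighbouring genes were also looked at, as an exploration. Of 61 genes past 2-fold higher with an upstream neighbour on the same strand within 10 kb, 4 had a neighbour that was also higher (6.56%), against 4.59% of all genes; Hspa1a with Hspa1b and Mt2 with Mt1 were among the 4. Divergent neighbours within 1 kb were also higher for 4 of 50 genes (8%), against 2.87% of all genes, and these 4 are the pairs Gadd45a with E230016M11Rik and Mettl6 with Eaf1, each counted from both sides.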
